A study of Mus musculus with 28 samples.

Results

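Ion channel and transmitter receptor genes were followed in mouse E14 embryonic stem cells that left and re-entered naive culture. The genes were taken by symbol, as subunits of potassium (Kcn), calcium (Cacn) and sodium (Scn) channels, ionotropic glutamate receptors (Gria, Grik, Grin), GABA-A receptors (Gabr) and ryanodine receptors (Ryr). Of the 30386 genes in the deposited table, 173 symbols matched, and the 56 genes studied here were those with a mean of at least 3 CPM (read counts scaled to a fixed library total) in any group. They were 27 of 99 potassium channel symbols, 12 of 26 calcium channel symbols, 6 of 14 sodium channel symbols, 5 of 16 glutamate receptor symbols, 3 of 15 GABA-A receptor symbols and 3 of 3 ryanodine receptor symbols. The lowest highest-group means inside that level were 3.11 CPM for Kcnk3 and 3.22 CPM for Kcnab2, and the highest outside it were 2.93 CPM for Cacnb2 and 2.62 CPM for Grin2a. Of the 117 symbols under the level, 11 had 0 counts in every library. Among the matches, Kcnq1ot1 is no channel gene but a noncoding RNA antisense to Kcnq1, and the remaining 55 are protein coding.

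The study asked how far cells that have left naive pluripotency can go back. All groups were the same line, E14, a widely used mouse embryonic stem cell line, in N2B27, a serum-free medium that permits neural differentiation. In the group called 2iL the medium held the GSK3 inhibitor CHIR99021 at 3 uM, the MEK inhibitor PD0325901 at 1 uM and the cytokine LIF, which together keep the cells naive. In the groups 24 h, 48 h, 96 h and 120 h these had been withdrawn for that time, and in 48 h + 2iL and 96 h + 2iL they were returned for 24 h after 48 h or 96 h without them. Each of the 7 groups had 4 libraries of 3′ digital gene expression RNA sequencing, which counts reads near transcript ends. The sample titles number 4 experiments, each with all 7 groups, and the replicate number is that of the experiment. How the experiments differ is not stated, so p-values measure the spread between these experiments, which may be technical in part.

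Voltage-gated channels are built around pore-forming alpha subunits that open on a change of membrane voltage, with auxiliary subunits that set their trafficking and gating. Ionotropic glutamate and GABA-A receptors are ligand-gated pores that carry fast excitation and inhibition in neurons, and ryanodine receptors release calcium from the endoplasmic reticulum. Embryonic stem cells are not electrically excitable in the way neurons are, and many of these genes are known for their later expression in neurons and muscle.

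Promoter sequences are shown for 4 of the genes on which the results turn, the glutamate receptor subunit Grin1, which fell on withdrawal, and Cacna1b, Cacng7 and Kcnk1, which rose on withdrawal and fell again when 2iL returned after 48 h. Each is the 250 bases before the transcript start in RefSeq on GRCm38.p6, 5′ to 3′ on the strand of the gene, with every CG dinucleotide in capitals. Grin1 is read from chr2:25319188-25319437 on the minus strand, Cacna1b from chr2:24763153-24763402 on the minus strand, Cacng7 from chr7:3332575-3332824 on the plus strand and Kcnk1 from chr8:125994852-125995101 on the plus strand.
Grin1: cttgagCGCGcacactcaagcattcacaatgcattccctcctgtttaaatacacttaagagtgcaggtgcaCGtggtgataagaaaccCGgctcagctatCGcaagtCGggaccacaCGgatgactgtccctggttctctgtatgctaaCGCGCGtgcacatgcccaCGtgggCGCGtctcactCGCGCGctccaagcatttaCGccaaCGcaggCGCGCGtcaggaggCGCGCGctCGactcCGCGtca
Cacna1b: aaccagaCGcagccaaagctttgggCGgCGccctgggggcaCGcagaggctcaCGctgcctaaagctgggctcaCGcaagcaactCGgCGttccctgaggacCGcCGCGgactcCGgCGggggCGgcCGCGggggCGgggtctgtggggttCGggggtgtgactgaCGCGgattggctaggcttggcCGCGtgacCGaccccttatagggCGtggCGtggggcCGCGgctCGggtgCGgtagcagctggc
Cacng7: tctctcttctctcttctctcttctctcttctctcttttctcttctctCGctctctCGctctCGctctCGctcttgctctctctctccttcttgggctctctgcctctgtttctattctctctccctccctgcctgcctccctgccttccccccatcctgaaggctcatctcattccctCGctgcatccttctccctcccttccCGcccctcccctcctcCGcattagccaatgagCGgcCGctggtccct
Kcnk1: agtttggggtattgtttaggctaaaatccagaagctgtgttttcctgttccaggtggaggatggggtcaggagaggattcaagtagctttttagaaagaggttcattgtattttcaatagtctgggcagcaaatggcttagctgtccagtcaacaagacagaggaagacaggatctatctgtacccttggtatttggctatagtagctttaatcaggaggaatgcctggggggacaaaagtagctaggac
The windows hold 27 CG dinucleotides for Grin1, 29 for Cacna1b, 9 for Cacng7 and 0 for Kcnk1. The RefSeq table had a promoter for 37 of the 56 genes, with a median GC content of 60% against 52% over all 27025 promoters of the same length. On either strand, the GC box GGGCGG was found in 18 of 37 promoters (48.65%) against 32.94% of all. It lies at 3 places in the Cacna1b window, the nearest 118 to 113 bases before the start, and at 1 place in the Cacng7 window, 48 to 43 bases before it. The left and right parts of the RE1 element bound by the neural gene repressor REST, written CAGCACC and GGACAGC, were found in 0 and 5 of 37 (0% and 13.51%) against 5.698% and 5.291% of all. The Kcnk1 window holds GGACAGC on its minus strand, 110 to 104 bases before the start. The octamer ATGCAAAT was in 1 of 37 against 1.61% of all, the STAT motif TTCCNGGAA in 1 of 37 against 0.914%, the OTX motif GGATTA in 1 of 37 against 6.383%, the TCF/LEF motif CTTTGAT in 0 against 3.227% and the ESRRB motif TCAAGGTCA in 0 against 0.3663%. GGGCGG itself contains a CG dinucleotide, so GC boxes and capitals overlap. A match is a run of letters and not a shown binding site.

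Libraries held 1554830 to 2828694 gene counts, and no pair of the 42 replicate pairs was identical. The summed level of 13 naive pluripotency markers was 2972 to 3470 CPM in 2iL, 93.7 to 164 CPM at 120 h and 2108 to 2367 CPM in 48 h + 2iL. In 96 h + 2iL it was 926, 830, 148 and 457 CPM in replicates 1 to 4, so that replicate 3 stood apart there. The summed level of 14 neural progenitor markers was 1426 CPM in that library against 561 to 818 CPM in the other 3, and replicate 3 was also the highest at 96 h (709 CPM against 338 to 443 CPM) and at 120 h (1212 CPM against 601 to 807 CPM). Counts of calls are therefore given again without replicate 3 of every group, a choice made after seeing the data. Exons of another gene overlap those of 20 of the 56 genes on the other strand and of 4 on the same strand, and use of strand in counting is not stated, so reads of such partners cannot be told apart.

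The channel and receptor genes did not move as a block, and their highest means fell in different groups. The group with the highest mean was 96 h for 17 of the 56 genes and 120 h for 15, against 6 in 2iL, 6 at 24 h and 5 at 48 h, 2 in 48 h + 2iL and 5 in 96 h + 2iL. Of the 56 genes, 44 had enough counts to be tested, and 12 were described only. The same highest means chose the genes, and the share of all genes by highest group was not computed. Because a gene could enter through a high level in a single group, a gene that did so had to differ somewhere. The counts by highest group and those below therefore describe the genes and are no test of them. In bulk RNA, fewer cells with a transcript and less of it per cell cannot be told apart.

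A gene is said to have risen or fallen where edgeR's quasi-likelihood test gave a Benjamini-Hochberg adjusted p under 0.05 over all 11080 genes tested. At 24 h without 2iL, 4 of the 44 tested genes had risen against 7.68% of all genes, and 3 had fallen against 8.29%. At 48 h, 9 had risen (14.6% of all genes) and 8 had fallen (13.2%). At 96 h, 23 had risen (21.9% of all genes) and 8 had fallen (19.2%), and at 120 h, 23 had risen (24.6%) and 9 had fallen (22.6%). The share that rose was thus 52.3% of the tested genes at 96 h and at 120 h, above the share of all genes, while the share that fell was near it. The noncoding Kcnq1ot1 is among the fallen at 48 h, 96 h and 120 h. The median log2 fold change of the tested genes was 0.13, 0.55, 1.40 and 1.15 at the 4 times, against 0.01, 0.02, 0.02 and 0.01 for all genes. Over these 4 times 27 genes rose and 12 fell at least once, 1 of them both, the AMPA receptor subunit Gria3, and 18 did neither, the 12 untested genes among them. Without replicate 3 of every group the counts that rose and fell were 6 and 2 at 24 h, 10 and 7 at 48 h, 22 and 7 at 96 h and 23 and 9 at 120 h.

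**Figure D1:**
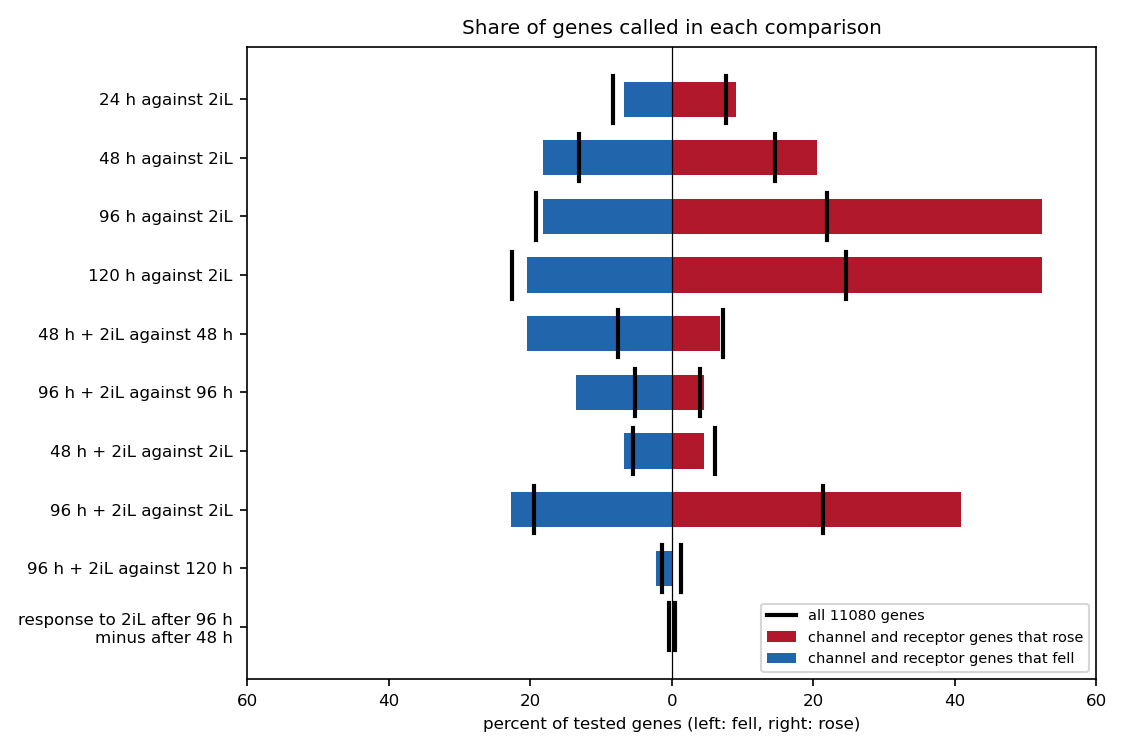
Percent of the 44 tested channel and receptor genes that rose (red, right) or fell (blue, left) in each of the 10 comparisons, with the percent of all 11080 genes as black lines. The red bars reach 52.3% at 96 h and 120 h, where the lines stand at 21.9% and 24.6%, and the blue bars stay near the lines there.

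The neural progenitor markers moved over the same times, and their part in these changes was not tested. Of 13 tested markers, 2 rose and 1 fell at 48 h, 10 rose and 1 fell at 96 h, 11 rose and 1 fell at 120 h and 10 rose and 0 fell in 96 h + 2iL, each against 2iL. The 14 neuron markers had a summed level of 386 to 465 CPM in 2iL, 537 to 596 CPM at 96 h and 386 to 658 CPM at 120 h. Of 11 tested, 6 rose and 2 fell at 96 h, and 6 rose and 1 fell at 120 h. The 14 muscle markers summed to 65.3 to 85.9 CPM in 2iL and 26.8 to 49.2 CPM at 120 h, and the 10 glia markers to 31.8 to 46.2 CPM and 61.1 to 75.0 CPM, with 5 of the 10 at 0 counts in 2iL and 2 at 120 h. The 11 fibroblast markers summed to 168 to 347 CPM in 2iL and 138 to 447 CPM at 120 h, and the 11 mesendoderm and endoderm markers to 24.6 to 37.6 CPM and 32.8 to 105 CPM.

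In what follows CPM values are scaled by TMM, ± after a mean is the SD over 4 libraries, log2 fold changes carry their standard error, and the adjusted p is that of edgeR's quasi-likelihood test. Where a group held 1 to 3 pooled counts, the scaled pooled counts of both groups are set as a ratio, followed by the exact 95% interval, which covers counting error only. Levels are compared within a gene and not between genes.

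Among glutamate receptors, Grin1 was the gene that withdrawal lowered most. It encodes the obligatory GluN1 subunit of NMDA receptors and lies at chr2:25291181-25319187 on the minus strand. In 2iL it stood at 48.8, 51.1, 47.0 and 47.7 CPM in replicates 1 to 4. At 24 h it was 9.72, 3.77, 6.30 and 2.76 CPM, and at 48 h it was 0, 0.494, 0 and 1.23 CPM. All 4 libraries at each of these times lay far below the 4 in 2iL, and at 48 h the group held 3 counts against 429. The log2 fold change at 24 h was -3.10 ± 0.55 (adjusted p = 0.000117), and at 48 h the level in 2iL was 117-fold that at 48 h (39.8 to 570, adjusted p = 6.56e-08). Grin1 was at 1.38, 0, 4.80 and 2.84 CPM at 96 h and at 0.746, 4.47, 2.25 and 5.36 CPM at 120 h. These libraries again stood apart from those in 2iL (-4.41 ± 0.60 at 96 h, adjusted p = 3.61e-07, and -3.94 ± 0.58 at 120 h, adjusted p = 9.73e-07). When 2iL came back after 48 h, Grin1 was at 11.1, 10.5, 7.48 and 0 CPM. In 3 libraries it was above every library at 48 h, and in replicate 4 it was not detected. It rose against 48 h, by a ratio of 17.6 (5.75 to 87.4, adjusted p = 0.0028), and was still below 2iL (-2.73 ± 0.52, adjusted p = 0.00053). After 96 h the return left it at 1.42, 4.95, 1.95 and 1.24 CPM, overlapping the libraries at 96 h and below 2iL (-4.25 ± 0.60, adjusted p = 8.08e-07). The noncoding Grin1os, whose exons overlap those of Grin1 on the other strand, had 0 counts in every group.

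The other glutamate receptor genes took different courses. Grik3, a kainate receptor subunit, was 15.9 ± 4.17 CPM in 2iL and 4.78 ± 1.20 CPM at 48 h, and fell at 48 h (-1.71 ± 0.47, adjusted p = 0.00568). At 96 h replicate 1 was at 30.7 CPM and the other 3 at 6.10 to 8.11 CPM, and the gene was not called there or at 120 h. It was lower in 96 h + 2iL than in 2iL (-1.39 ± 0.45, adjusted p = 0.0128), a call lost without 96 h + 2iL replicate 3 (adjusted p = 0.054). Grik5, a kainate receptor subunit of high agonist affinity, rose from 1.10 ± 0.878 CPM in 2iL to 11.6 ± 1.77 CPM at 96 h (3.40 ± 0.53, adjusted p = 3.94e-06) and 9.50 ± 3.44 CPM at 120 h. Gria3 was 1.03 ± 0.668 CPM in 2iL and had 0 counts in all 4 libraries at 24 h, at least 2.33-fold lower against 3 counts over the group. That call (adjusted p = 0.0201) rested on 9 counts in 2iL and was lost without 2iL replicate 3 (adjusted p = 0.0537). Gria3 then rose to 6.41 ± 2.15 CPM at 96 h and 11 ± 2.44 CPM at 120 h (3.35 ± 0.53, adjusted p = 4.46e-06), with no overlap with 2iL at either time. Gria4 was not tested and was listed at 3.99 ± 0.709 CPM at 120 h against 0.547 ± 0.804 CPM in 2iL.

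Ryr3, a ryanodine receptor of brain and other tissues, was high for a short time. It lies at chr2:112631355-113217096 on the minus strand. It was 0.483, 0, 0.751 and 0.568 CPM in 2iL, 7.90, 17.9, 23.9 and 7.60 CPM at 24 h and 38.9, 31.6, 33.0 and 40.5 CPM at 48 h. The 3 groups did not overlap, and each was above the one before. The log2 fold change against 2iL was 4.82 ± 0.73 at 24 h (adjusted p = 1.26e-05) and 6.13 ± 0.70 at 48 h (adjusted p = 2.61e-08). By 96 h the libraries were at 4.59, 4.85, 0.436 and 2.03 CPM and at 120 h at 7.09, 0, 1.35 and 1.79 CPM. These ranges reached down to those of 2iL, and the calls at 96 h (2.57 ± 0.85, adjusted p = 0.0156) and at 120 h (2.44 ± 0.86, adjusted p = 0.02) were each lost without 2iL replicate 2 (adjusted p = 0.0554 and 0.0658), the first also without 96 h replicate 2 (adjusted p = 0.0583) and the second without 120 h replicate 1 (adjusted p = 0.341). With 2iL returned after 48 h, Ryr3 was at 1.01, 0.421, 1.25 and 2.33 CPM, below all libraries at 48 h (-4.79 ± 0.60, adjusted p = 5.93e-07). After the return at 96 h it was at 0.949, 0.413, 0.973 and 1.86 CPM. Exons of Aven overlap those of Ryr3 on the other strand, and Aven held 161 to 337 pooled counts in each group, with 337 in 2iL and 196 at 48 h.

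The other ryanodine receptors went another way. Ryr2, the cardiac and brain form, was 7.87 ± 3.40 CPM in 2iL, 7.01 ± 2.15 CPM at 48 h, 1.62 ± 1.00 CPM at 96 h and 0.667 ± 0.459 CPM at 120 h. It fell at 96 h (-2.26 ± 0.59, adjusted p = 0.00251) and at 120 h (-3.47 ± 0.68, adjusted p = 8.09e-05) and remained below 2iL in 96 h + 2iL (-2.90 ± 0.66, adjusted p = 0.000552). Ryr1, the skeletal muscle form, was 7.94 ± 5.27 CPM in 2iL, 10.2 ± 1.25 CPM at 48 h and 3.64 ± 1.96 CPM at 120 h, and was called in none of the withdrawal comparisons.

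**Figure D2:**
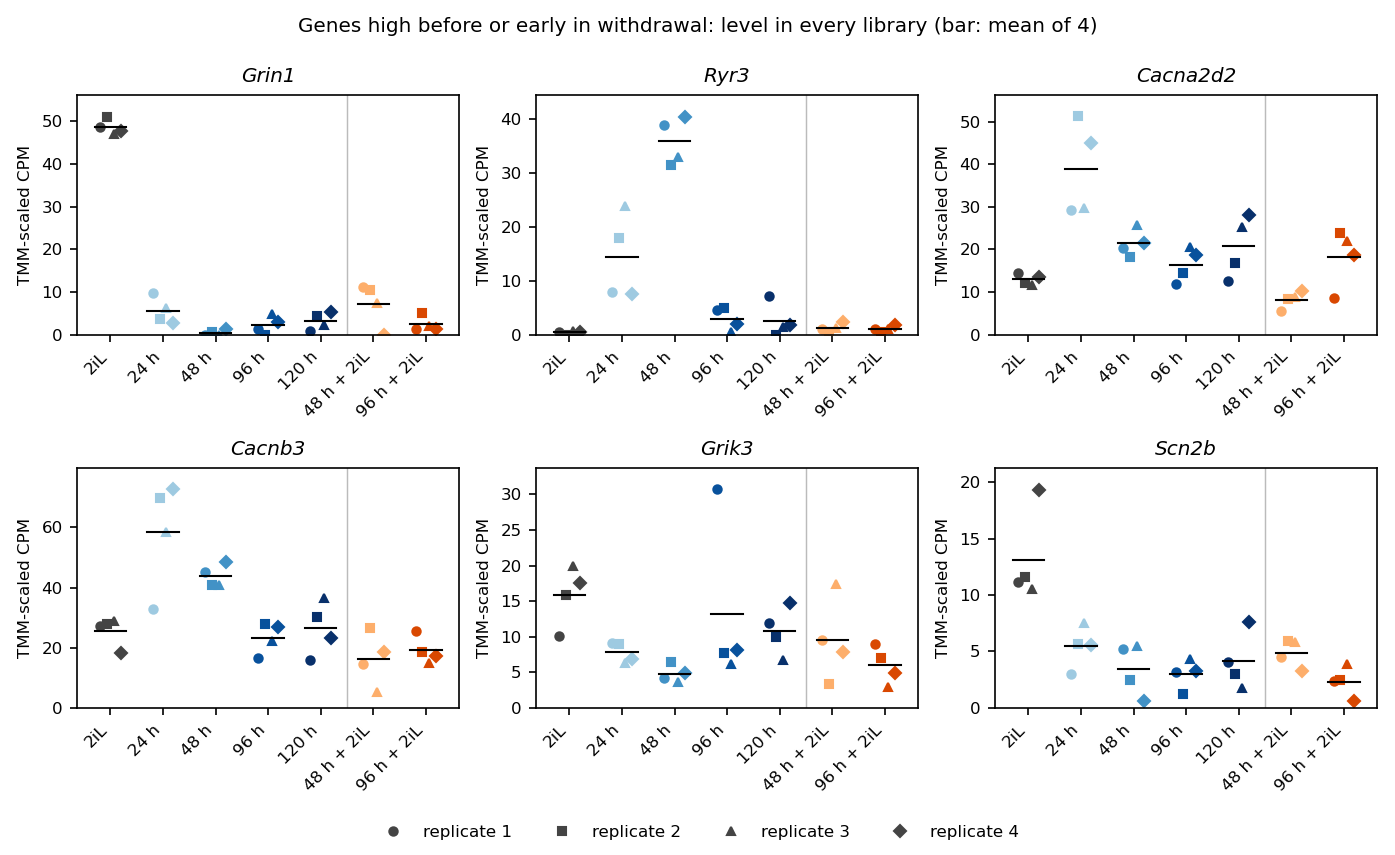
TMM-scaled CPM of 6 genes that were high in 2iL or early in withdrawal, in every library (points, marker by replicate) of the 7 groups, with the group mean as a bar. Grin1 drops from 47.0 to 51.1 CPM in 2iL to at most 1.23 CPM at 48 h, while Ryr3 reaches 31.6 to 40.5 CPM at 48 h alone, and replicate 1 of Grik3 at 96 h stands at 30.7 CPM.

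Of the 10 tested calcium channel genes, 3 rose and 1 fell at 24 h, 4 rose and 2 fell at 48 h, and 6 rose and 2 fell at 96 h and at 120 h. Taken by symbol, these include Cacng4, Cacng7 and Cacng8, which encode TARP auxiliary subunits of AMPA receptors. Cacng4, Cacng7 and Cacng8 were all among the genes that rose at 96 h and at 120 h. The shares of all genes that rose and fell were 7.68% and 8.29% at 24 h, 14.6% and 13.2% at 48 h, 21.9% and 19.2% at 96 h and 24.6% and 22.6% at 120 h. The 3 that rose at 24 h, Cacna2d2, Cacnb3 and the TARP gene Cacng7, encode auxiliary subunits. Cacna2d2, an alpha2delta subunit that raises the surface density of channels, was 14.5, 12.0, 11.6 and 13.6 CPM in 2iL and 29.2, 51.4, 29.6 and 44.9 CPM at 24 h. The groups did not overlap (1.59 ± 0.28, adjusted p = 0.000107). It was 20.2, 18.3, 25.6 and 21.5 CPM at 48 h, 11.9, 14.6, 20.5 and 18.7 CPM at 96 h and 12.7, 16.9, 25.2 and 28.1 CPM at 120 h, and was below all of these in 48 h + 2iL, at 5.56, 8.41, 8.73 and 10.2 CPM. That was a fall against 48 h (-1.36 ± 0.30, adjusted p = 0.00165). Its libraries in 96 h + 2iL, at 8.54, 23.9, 21.9 and 18.6 CPM, overlapped those at 96 h. The call of Cacna2d2 as risen at 120 h against 2iL (0.68 on the log2 scale) was lost without any of 6 of the 8 libraries, with adjusted p of 0.0607 to 0.197. Cacnb3, a cytoplasmic beta subunit, was 27.1, 27.9, 28.9 and 18.2 CPM in 2iL, 32.8, 69.8, 58.6 and 72.6 CPM at 24 h and 45.1, 41.0, 40.9 and 48.4 CPM at 48 h. It rose at 24 h (1.19 ± 0.29, adjusted p = 0.00401), where all 4 libraries were above 2iL, and was back at 23.4 ± 5.17 CPM at 96 h. It fell when 2iL returned after 48 h, to 14.7, 26.5, 5.40 and 18.6 CPM (-1.43 ± 0.30, adjusted p = 0.00105).

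Some calcium channel genes fell and were still below 2iL at 120 h. Cacnb1, the beta subunit known from skeletal muscle, was 35.9 ± 9.19 CPM in 2iL and 13.7 ± 6.53 CPM at 24 h, and fell at each of the 4 times, to 10.1 ± 3.33 CPM at 120 h (-1.81 ± 0.30, adjusted p = 7.07e-06). It was 22.9 ± 3.22 CPM in 48 h + 2iL, where it was not called against 2iL, and 16.1 ± 6.11 CPM in 96 h + 2iL, where it was (-1.16 ± 0.29, adjusted p = 0.00159). Cacna1a, the pore of P/Q-type channels, was 92.8, 72.6, 114 and 85.7 CPM in 2iL, 100, 124, 81.9 and 72.6 CPM at 24 h and 32.1, 47.3, 26.6 and 41.0 CPM at 96 h. At 48 h it was called lower than 2iL (-0.52 on the log2 scale). That call was lost without any of 6 of the 8 libraries, with adjusted p of 0.0525 to 0.171. It fell at 96 h (-1.31 ± 0.20, adjusted p = 2.72e-06), with no overlap with 2iL, and stood at 35.8, 53.7, 28.8 and 32.1 CPM at 120 h. In 48 h + 2iL it was 38.4, 48.8, 32.4 and 44.2 CPM, below 2iL (-1.16 ± 0.20, adjusted p = 0.000161), and in 96 h + 2iL it was 32.8, 41.7, 33.6 and 36.6 CPM, also below 2iL (-1.34 ± 0.20, adjusted p = 2.75e-06). Neither return brought it back to the range of 2iL. The return after 48 h was called as a further fall against 48 h (-0.64 on the log2 scale). That call was lost without 48 h replicates 1 or 2 or 48 h + 2iL replicates 1 or 3, with adjusted p of 0.0757 to 0.116.

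Cacng7, a TARP auxiliary subunit of AMPA receptors that shares its family name with calcium channel gamma subunits, rose at each of the 4 times. It was 3.86, 2.58, 2.25 and 2.84 CPM in 2iL, 11.5, 9.43, 6.93 and 21.4 CPM at 24 h, 19.7, 13.3, 11.6 and 15.9 CPM at 48 h and 41.7, 42.4, 36.2 and 66.9 CPM at 96 h. It had thus left the range of 2iL at 24 h and was highest at 96 h (4.01 ± 0.35, adjusted p = 5.21e-11). At 120 h it was 38.4, 47.7, 34.2 and 43.3 CPM (3.81 ± 0.35, adjusted p = 1.38e-10). In 48 h + 2iL it was 3.03, 2.52, 8.31 and 3.72 CPM, a fall against 48 h (-1.75 ± 0.35, adjusted p = 0.00052) to levels that overlapped 2iL. Its level in 96 h + 2iL was 20.9, 15.3, 26.3 and 28.6 CPM, still above every library in 2iL (2.96 ± 0.36, adjusted p = 6.88e-08). Its fall against 96 h (-1.05 ± 0.27, adjusted p = 0.0113) was lost without 96 h replicate 4 (adjusted p = 0.083) or 96 h + 2iL replicate 2 (adjusted p = 0.0584).

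Cacng7 has family neighbours, Cacng8 and Cacng6, which follow it on the same strand at chr7:3332955-3368221 for Cacng7, chr7:3390683-3415648 for Cacng8 and chr7:3424195-3435667 for Cacng6. Cacng8, also a TARP subunit, had 1 count in 2iL and was 3.52 ± 2.65 CPM at 48 h, 6.09 ± 1.02 CPM at 96 h and 5.41 ± 1.93 CPM at 120 h. It rose at 48 h by a ratio of 31.8 (5.22 to 1302, adjusted p = 0.00179) and at 96 h by a ratio of 53.4 (9.21 to 2147, adjusted p = 7.48e-05). It was 0.608 ± 1.22 CPM in 96 h + 2iL, all of it from 5 counts in replicate 3, which was a fall against 96 h (-3.19 ± 0.79, adjusted p = 0.00776). Its fall on the return after 48 h, from 26 to 3 counts (adjusted p = 0.0145), was lost without 48 h replicate 2 (adjusted p = 0.093) or without 48 h + 2iL replicates 2 or 3 (adjusted p = 0.0571 and 0.0573). Cacng6 was not tested and had 1 count in 2iL, 36 at 96 h and 6 in 96 h + 2iL. All 3 neighbours were thus higher at 96 h than in 2iL by their means, and lower again after the return.

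Cacna1b, the pore of N-type channels of nerve terminals, was 0, 0.429, 0 and 0.568 CPM in 2iL, 8.30, 3.46, 9.16 and 5.52 CPM at 48 h and 12.4, 12.5, 11.8 and 13.4 CPM at 96 h. Each group was above the one named before it, with 2, 47 and 118 pooled counts. The ratio to 2iL was 28.7 at 48 h (7.52 to 244, adjusted p = 1.91e-06) and 55.3 at 96 h (15 to 462, adjusted p = 8.47e-09). It was 5.60, 8.45, 4.5 and 9.82 CPM at 120 h and 7.60, 6.19, 6.33 and 8.07 CPM in 96 h + 2iL, and these groups overlapped. In 48 h + 2iL it was 1.52, 1.26, 3.32 and 0.465 CPM, below every library at 48 h (-1.94 ± 0.47, adjusted p = 0.00425). Cacna1g, a T-type pore, had 3 counts in 2iL and 2 at 48 h. It was 0.917, 5.66, 13.5 and 8.11 CPM at 96 h and 5.60, 8.45, 12.2 and 15.6 CPM at 120 h, a ratio to 2iL of 30.2 at 120 h (10.02 to 149, adjusted p = 3.78e-05). Returned 2iL after 96 h left it at 1.42, 2.89, 14.1 and 6.83 CPM, with replicate 3 the highest and replicate 1 the lowest.

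Cacng4, another TARP subunit, was 0.966, 0.859, 2.25 and 0.568 CPM in 2iL and 5.05, 3.23, 27.9 and 4.87 CPM at 96 h. Replicate 3 stood far above the other 3, and the call at 96 h (3.00 ± 0.77, adjusted p = 0.002) was lost without it (adjusted p = 0.063). At 120 h Cacng4 was 15.7, 14.9, 24.3 and 12.9 CPM, all above 2iL (3.73 ± 0.75, adjusted p = 0.000116). Libraries of 96 h + 2iL were at 6.17, 5.36, 20.9 and 9.93 CPM and those of 48 h + 2iL at 7.58, 2.94, 7.07 and 4.65 CPM, so the gene was above 2iL in every library of both. In 48 h + 2iL the rise against 2iL was not called (2.12 on the log2 scale, adjusted p = 0.0862), and was with the experiment as a block (2.26, adjusted p = 0.0189), by DESeq2 (2.19, adjusted p = 0.0399) and without the filter (2.13, adjusted p = 0.00484). Against 48 h the gene was called as risen in 48 h + 2iL (3.17 on the log2 scale). That call was lost without 48 h replicates 1, 2 or 3 or 48 h + 2iL replicates 1 or 3, with adjusted p of 0.0552 to 0.0809. Cacna2d1, the other alpha2delta gene among those studied, was 2.90, 10.7, 7.51 and 10.8 CPM in 2iL, 28.4, 21, 18.8 and 24.7 CPM at 96 h (1.54 ± 0.42, adjusted p = 0.00323) and 11.9, 7.84, 7.30 and 8.69 CPM in 96 h + 2iL. The 96 h libraries were above both other groups. Its fall on the return (-1.38 ± 0.41, adjusted p = 0.0303) was lost without any of 6 of the 8 libraries, 96 h replicates 1, 2 and 4 and 96 h + 2iL replicates 2, 3 and 4, with adjusted p of 0.0526 to 0.0917. Before TMM scaling its mean was 23.7 CPM at 96 h, 15.2 CPM at 120 h without the return and 9.16 CPM in 96 h + 2iL. It was not called at 120 h against 2iL, nor between 96 h + 2iL and 120 h.

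Leaving aside the noncoding Kcnq1ot1, 22 potassium channel genes were tested. Of these, 0 rose or fell at 24 h, where edgeR's unadjusted p was under 0.05 for 3 of them and DESeq2 called 0. At 48 h 3 rose and 2 fell, at 96 h 11 rose and 2 fell, and at 120 h 12 rose and 3 fell. Of all genes, 7.68% rose and 8.29% fell at 24 h, 14.6% and 13.2% at 48 h, 21.9% and 19.2% at 96 h and 24.6% and 22.6% at 120 h. Kcnk1, a background (leak) potassium channel, was 3.86, 5.58, 8.27 and 9.09 CPM in 2iL, 2.43, 11.8, 12.6 and 8.98 CPM at 24 h and 35.3, 38.0, 37.8 and 22.1 CPM at 48 h. At 48 h every library was above those of 2iL and 24 h (2.31 ± 0.44 against 2iL, adjusted p = 0.000144). It was 67.9, 79.2, 24.0 and 45 CPM at 96 h (3.00 ± 0.43, adjusted p = 1.08e-06) and 47.0, 37.3, 11.7 and 17.4 CPM at 120 h, with replicate 3 the lowest both times. In 96 h + 2iL it was 19.9, 16.9, 8.27 and 5.59 CPM, below every library at 96 h (-2.06 ± 0.40, adjusted p = 0.000895). In 48 h + 2iL it was 9.60, 16.4, 15.4 and 8.84 CPM, below every library at 48 h (-1.40 ± 0.41, adjusted p = 0.0178), a call lost without 48 h + 2iL replicate 1 (adjusted p = 0.0583) or 4 (adjusted p = 0.0629).

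Kcnj3, the GIRK1 subunit of channels gated by G proteins, was first called as risen at 96 h. It was 0, 0.429, 0.751 and 0 CPM in 2iL, 17.4, 27.5, 7.85 and 23.9 CPM at 96 h and 14.9, 12.4, 2.25 and 7.59 CPM at 120 h. The 96 h and 120 h libraries were all above those of 2iL, with replicate 3 the lowest of each. Before TMM scaling its mean was 0.284 CPM in 2iL, 1.06 CPM at 24 h and 1.10 CPM at 48 h, so it was detected before 96 h. The ratio to 2iL was 57.2 at 96 h (19.3 to 280, adjusted p = 9.57e-06) and 27.9 at 120 h (9.25 to 138, adjusted p = 0.000214). Its 96 h + 2iL libraries were at 6.65, 7.84, 0 and 1.86 CPM, below every library at 96 h (-2.17 ± 0.66, adjusted p = 0.0326). That call was lost without 96 h replicates 1, 2 or 4 or 96 h + 2iL replicates 3 or 4, with adjusted p of 0.0579 to 0.111, and also by DESeq2 (adjusted p = 0.106) and with only the groups compared (adjusted p = 0.0521). Kcna1, the Kv1.1 pore, came later still. It had 1 count in 2iL, 0 at 24 h and 1 at 48 h, and was 0.459, 2.43, 2.62 and 2.03 CPM at 96 h and 3.73, 7.45, 25.2 and 6.70 CPM at 120 h. All 4 libraries at 120 h were above all 4 at 96 h, and replicate 3 was the highest. The ratio of 120 h to 2iL was 92.5 (16.2 to 3692, adjusted p = 4.1e-05). Kcna1 was at 1.90, 0, 6.81 and 3.72 CPM in 96 h + 2iL. Kcna6 lies at higher coordinates than Kcna1 on the same minus strand of chromosome 6 (126640397 to 126646384 for Kcna1, 126708329 to 126740674 for Kcna6). Kcna6 was not tested and had 1 count in 2iL, 15 at 96 h and 33 at 120 h.

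**Figure D3:**
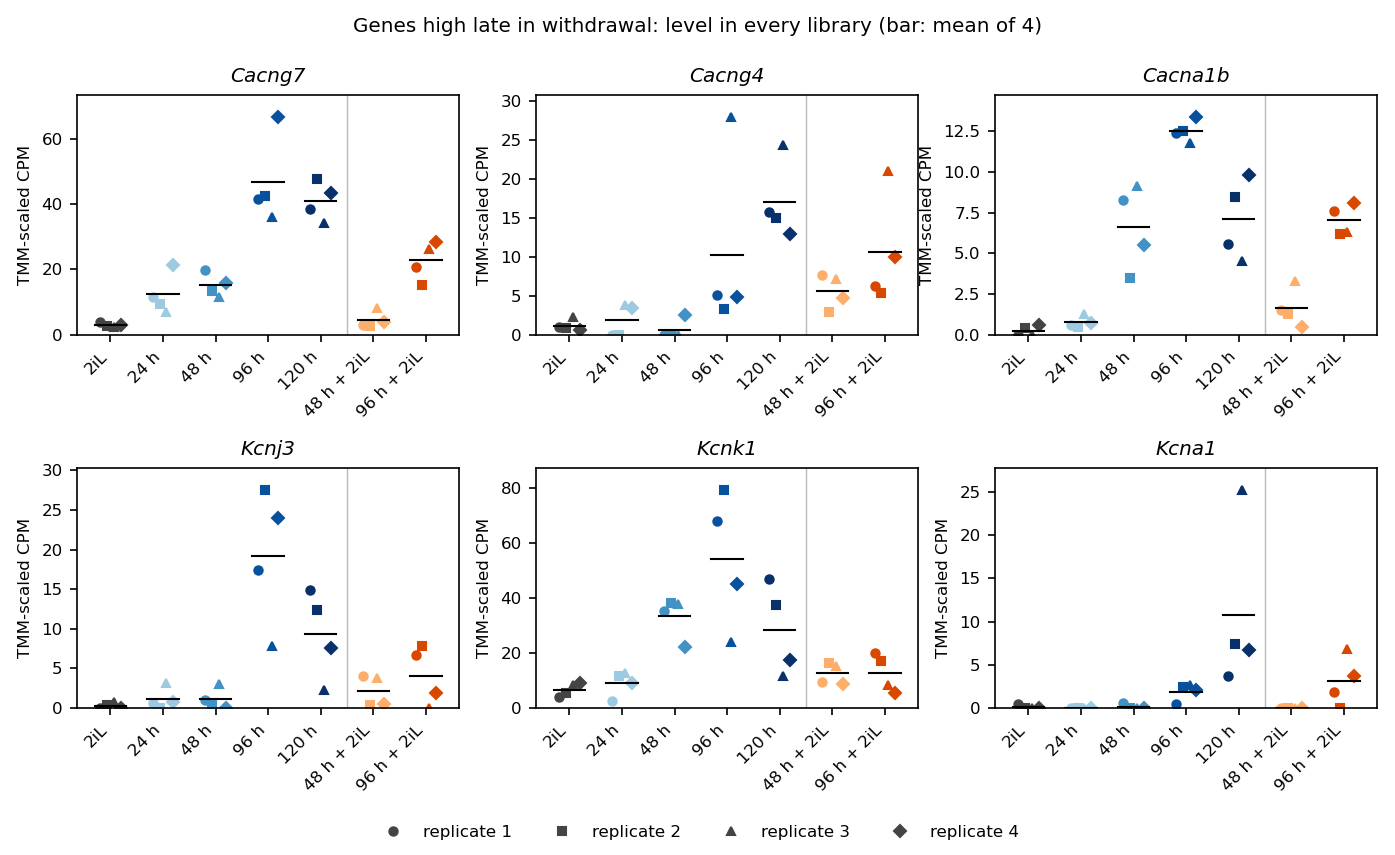
TMM-scaled CPM of 6 genes that were high late in withdrawal, in every library (points, marker by replicate) of the 7 groups, with the group mean as a bar. Every library of Cacng7 is above 2iL from 24 h, of Cacna1b from 48 h and of Kcnj3 from 96 h, and Kcna1 is highest at 120 h, where replicate 3 (triangle) stands at 25.2 CPM against 3.73 to 7.45 CPM in the others.

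Further potassium channel genes rose at 96 h or 120 h from levels close to 0. At 120 h these included Kcng1, a modifier of Kv2 channels (from 2 to 75 pooled counts, ratio 36.1, 9.66 to 304, adjusted p = 0.000195), Kcnmb4, the neuronal beta subunit of BK channels (from 3 to 91, ratio 29.2, 9.69 to 144, adjusted p = 3.14e-05), and Kcnip3, a calcium-binding partner of Kv4 channels (3.48 ± 0.63, adjusted p = 2.51e-05). Kcnh2, the ERG channel, rose from 1.47 ± 1.51 to 7.02 ± 3.93 CPM (2.15 ± 0.58, adjusted p = 0.00275), with overlap between its groups. Kcnq3, a subunit of M channels, rose from 0.376 ± 0.751 to 5.23 ± 1.02 CPM at 120 h (3.40 ± 0.81, adjusted p = 0.000801). Kcnk10, a leak channel not tested, had 12 counts at 96 h, all in replicate 3, and 28 at 120 h, against 1 in 2iL.

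Fewer potassium channel genes fell. Kcnk5, a leak channel, was 19.6 ± 5.62 CPM in 2iL, 6.49 ± 3.50 CPM at 96 h and 6.25 ± 2.24 CPM at 120 h (-1.64 ± 0.33, adjusted p = 0.000128). It was 23.4 ± 3.27 CPM in 48 h + 2iL and 7.61 ± 1.16 CPM in 96 h + 2iL, where it was below 2iL (-1.36 ± 0.33, adjusted p = 0.00121). Kcns3, a silent subunit that modifies Kv2 channels, was 6.0 ± 2.07 CPM in 2iL and 0.677 ± 0.311 CPM at 120 h (-3.06 ± 0.67, adjusted p = 0.000317). Kcnh3, an EAG-like channel of the forebrain, went from 49 counts in 2iL to 2 at 120 h, 25.4-fold lower (6.67 to 216, adjusted p = 0.000409), and had 1 count in 96 h + 2iL. Exons of Mcrs1 overlap Kcnh3 on the other strand, with 37 pooled counts in 2iL and 46 at 120 h. Kcnab3, a beta subunit, was 4.18 ± 2.13 CPM in 2iL, had 3 counts at 48 h, 9.55-fold lower (3.01 to 48.5, adjusted p = 0.00299), and was at 4.15 ± 0.878 CPM at 96 h. The noncoding Kcnq1ot1 went from 80.3 ± 14.7 CPM in 2iL to 43.8 ± 8.06 CPM at 48 h (-0.88 ± 0.19, adjusted p = 0.000748) and 49.8 ± 5.12 CPM at 120 h (-0.69 ± 0.19, adjusted p = 0.00315).

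Of the 3 tested sodium channel genes, Scn2b fell and Scn8a rose. Scn2b, an auxiliary beta subunit, was 11.1, 11.6, 10.5 and 19.3 CPM in 2iL, 5.18, 2.47, 5.49 and 0.613 CPM at 48 h, 3.21, 1.21, 4.36 and 3.24 CPM at 96 h and 4.10, 2.98, 1.80 and 7.59 CPM at 120 h. Every library at these times was below every one in 2iL (-1.90 ± 0.48 at 48 h, adjusted p = 0.00293, and -2.10 ± 0.48 at 96 h, adjusted p = 0.000557). It was 2.37, 2.48, 3.89 and 0.621 CPM in 96 h + 2iL, lower than in 2iL (-2.41 ± 0.50, adjusted p = 0.000199), and 4.55, 5.89, 5.82 and 3.26 CPM in 48 h + 2iL. The call in 48 h + 2iL against 2iL (-1.40 ± 0.45, adjusted p = 0.0386) was lost on leaving out any of 7 of the 8 libraries, all but 2iL replicate 3, with adjusted p of 0.0519 to 0.142, and without the filter on low counts (adjusted p = 0.0539). Scn8a, the Nav1.6 pore of mature neurons, was 2.18 ± 0.781 CPM in 2iL, 8.30 ± 3.12 CPM at 96 h and 14.3 ± 3.07 CPM at 120 h (2.64 ± 0.43, adjusted p = 6.54e-06), and 14.2 ± 4.63 CPM in 96 h + 2iL (2.63 ± 0.44 against 2iL, adjusted p = 1.1e-05). Scn9a had 0 counts in 2iL and 44 at 96 h, and Scn3a had 32 counts in 2iL, 2 at 48 h and 41 in 48 h + 2iL. Neither was tested.

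Of the GABA-A receptor genes, the alpha subunit Gabra3 was tested. It rose from 1.11 ± 1.31 CPM in 2iL to 7.14 ± 2.44 CPM at 96 h (2.52 ± 0.57, adjusted p = 0.00054) and 6.82 ± 0.911 CPM at 120 h (2.44 ± 0.57, adjusted p = 0.000641), and was 6.24 ± 2.00 CPM in 96 h + 2iL (2.32 ± 0.58, adjusted p = 0.00157). Gabra4 was highest at 96 h, where replicate 4 held 8.52 CPM and the other 3 held 0 to 2.18 CPM.

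The return of 2iL for 24 h was compared with the state from which the cells were returned. After 48 h, 3 genes rose against 7.24% of all genes and 9 fell against 7.67%. After 96 h, 2 rose against 4.02% of all genes and 6 fell against 5.23%. These comparisons share the 48 h or the 96 h libraries with the withdrawal comparisons. Without replicate 3 of every group 4 rose and 6 fell after 48 h, and 2 rose and 7 fell after 96 h. Leaving out 1 library at a time moved the genes that fell after 96 h to 2 without 96 h replicate 4 and to 3 without 96 h replicate 2 or 96 h + 2iL replicate 4. It moved those that rose after 48 h to 1 without 48 h replicate 2 or 3, and those that rose after 96 h to 1 without 96 h replicates 1, 2 or 4 or 96 h + 2iL replicates 1 or 4.

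Kcnj4 and Kcna2 were the genes called as risen in 96 h + 2iL against 96 h. At 120 h, without the return, both were also called above 2iL (1.44 for Kcnj4 and 2.72 for Kcna2 on the log2 scale). The 120 h call of Kcnj4 was lost without any of 4 of the 8 libraries, with adjusted p of 0.0604 to 0.0848. Neither gene was called between 96 h + 2iL and 120 h. Kcnj4, an inward rectifier, was 0, 5.58, 2.63 and 5.68 CPM in 2iL, 1.83, 2.02, 3.49 and 7.30 CPM at 96 h and 20.9, 14.9, 15.1 and 19.9 CPM in 96 h + 2iL. The returned libraries were above all those of both other groups (2.24 ± 0.50 against 96 h, adjusted p = 0.0036, and 2.34 ± 0.52 against 2iL, adjusted p = 0.000418). It was 12.3, 8.94, 11.7 and 4.47 CPM at 120 h and 7.58, 8.83, 9.56 and 7.91 CPM in 48 h + 2iL. The rise after 48 h (1.76 ± 0.57, adjusted p = 0.0341) was lost without 48 h replicates 2, 3 or 4 or 48 h + 2iL replicates 2, 3 or 4, with adjusted p of 0.0505 to 0.0984. Kcna2, the Kv1.2 pore, was 0.566 ± 0.653 CPM in 2iL, 0.983 ± 0.759 CPM at 96 h, 6.90 ± 2.40 CPM in 96 h + 2iL and 4.05 ± 2.41 CPM at 120 h. Its rise against 96 h (2.75 ± 0.79, adjusted p = 0.0232) was lost without 96 h replicates 1, 2 or 4 or 96 h + 2iL replicates 1 or 4, with adjusted p of 0.051 to 0.0956, and its rise against 2iL was 3.47 ± 0.87 (adjusted p = 0.00164).

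**Figure D4:**
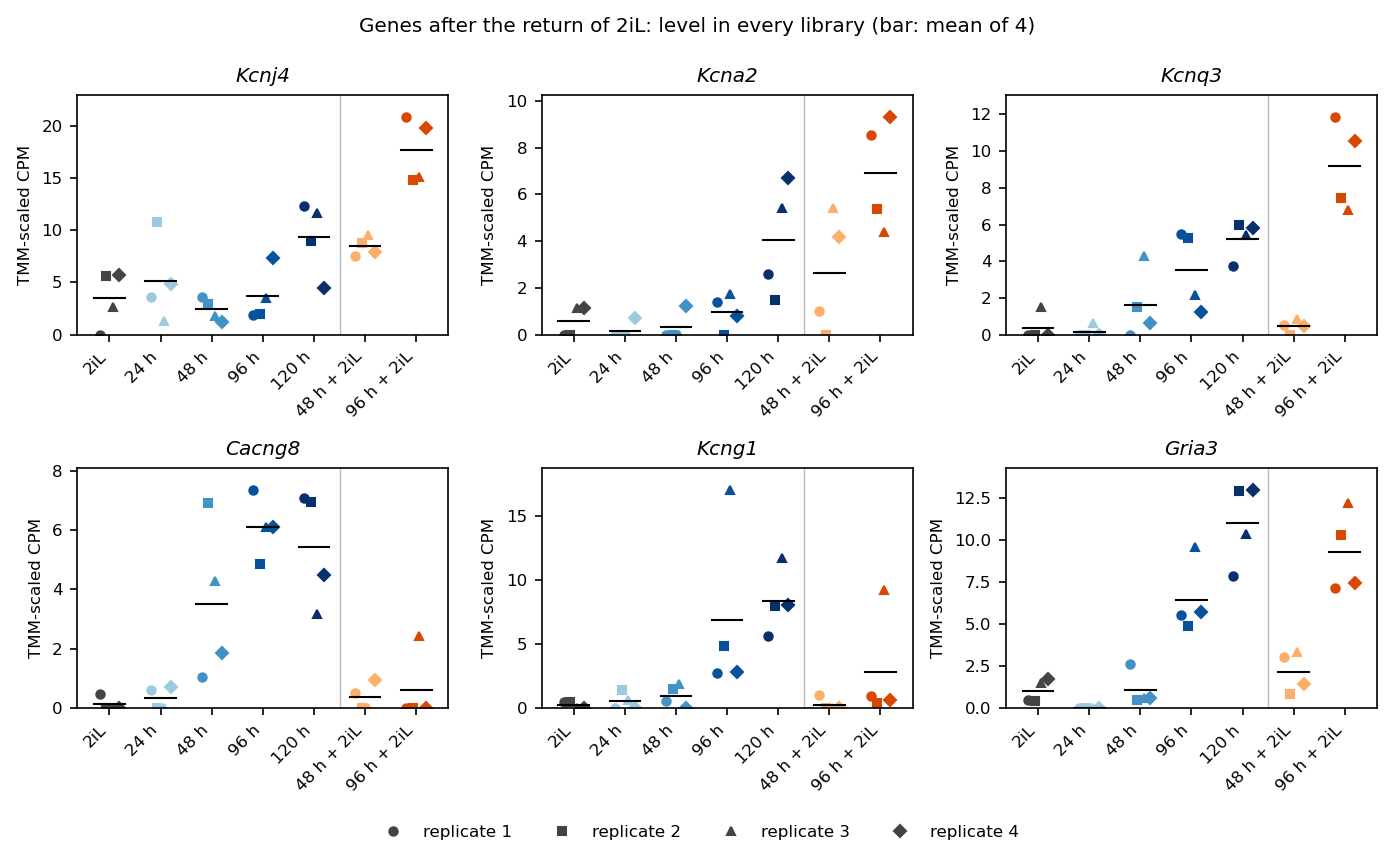
TMM-scaled CPM of 6 genes with different levels after the return of 2iL, in every library (points, marker by replicate) of the 7 groups, with the group mean as a bar. Kcnj4 is at 14.9 to 20.9 CPM in 96 h + 2iL against 1.83 to 7.30 CPM at 96 h, Cacng8 and Kcng1 hold most of their 96 h + 2iL signal in replicate 3 (triangle), and Gria3 is high at 120 h and in 96 h + 2iL alike.

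The returned groups were also compared with cells that never left 2iL. In 48 h + 2iL, 2 genes were above 2iL against 6.14% of all genes and 3 were below against 5.49%. In 96 h + 2iL, 18 were above against 21.4% of all genes and 10 were below against 19.5%. The median log2 fold change was 0.22 for 48 h + 2iL and 0.89 for 96 h + 2iL, against 0.01 for all genes in each. The 2 above in 48 h + 2iL were Scn8a (1.57 ± 0.46, adjusted p = 0.021) and Cacna1b (ratio 7.42, 1.73 to 66.9, adjusted p = 0.0223), and both calls were lost without 48 h + 2iL replicate 3 (adjusted p = 0.0865 and 0.185). That of Scn8a was also lost without 2iL replicates 2 or 4 (adjusted p = 0.0529 and 0.069), and that of Cacna1b without 2iL replicates 1 or 3 (adjusted p = 0.0653 and 0.0805), by DESeq2 (adjusted p = 0.0643) and without the filter on low counts (adjusted p = 0.0644). The count there was 1 without 2iL replicates 1, 2 or 4, and without replicate 3 of every group it was 0, with 3 below. The same omission gave 17 above and 7 below in 96 h + 2iL. Kcnq3 was highest in this group, at 11.9, 7.43, 6.81 and 10.6 CPM (4.20 ± 0.78 against 2iL, adjusted p = 5.49e-05), and Kcnh2 too, at 9.80 ± 3.46 CPM (2.62 ± 0.57, adjusted p = 0.00039). The call of Kcng1 there (adjusted p = 0.0187) rested on replicate 3, at 9.25 CPM against 0.413 to 0.949 CPM in the others, and was lost without it (adjusted p = 0.462) or without 2iL replicate 3 (adjusted p = 0.0583).

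The 120 h group had spent the same total time from withdrawal as 96 h + 2iL, without the return. Between them 0 genes were higher in 96 h + 2iL against 1.28% of all genes and 1 was lower against 1.34%. The gene was Cacng8 (-3.03 ± 0.80, adjusted p = 0.0285), a call lost without 120 h replicates 1 or 2 or 96 h + 2iL replicates 1, 2 or 4 (adjusted p of 0.0863 to 0.153). Unadjusted p was under 0.05 for 7 of the 44 genes, and DESeq2 likewise called 0 higher and Cacng8 lower. Without replicate 3 of every group 3 genes were lower, Cacng8, Cacng7 and Kcng1. With the experiment as a block, Cacng7 was called lower as well (-0.87 on the log2 scale, adjusted p = 0.0443). Kcnk1, at 12.7 ± 6.84 CPM in 96 h + 2iL and 28.3 ± 16.6 CPM at 120 h, was lower after the return in each of the 4 experiments. It was not called (-1.13 on the log2 scale, adjusted p = 0.171), and was without the filter on low counts (-1.12, adjusted p = 0.00404).

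The response to 2iL after 96 h was set against that after 48 h by an interaction term. It was called higher for 0 of the 44 genes against 0.451% of all genes, and lower for 0 against 0.469%. Unadjusted p was under 0.05 for 10 genes, and DESeq2 called 1, Cacna2d2 (1.53 on the log2 scale, adjusted p = 0.0358). Cacna2d2 was also called with the experiment as a block (1.54, adjusted p = 0.0215) and without the filter on low counts (1.49, adjusted p = 0.036). For Grin1, which rose on the return after 48 h and was not called after 96 h, the difference of responses was -3.79 ± 1.26 on the log2 scale (adjusted p = 0.168), and for Ryr3 it was 3.26 ± 1.12 (adjusted p = 0.186), neither of them called. Without the filter on low counts both were called (adjusted p = 0.00324 for Grin1 and 0.0381 for Ryr3), so these calls depend on that filter.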

How the data were processed

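Per the submitters' processing notes, the authors' tools were STAR 2.6.0a, HTSeq and bcl2fastq on mm10, and the role of each is not given in the sources used here. The deposited files hold raw read counts per gene for each of 28 libraries. The authors' deposited table holds CPM, which equalled the CPM computed from the counts in 28 of 28 columns within 1e-06. Alignments that were not unique made up 52.3% to 60.1% of those listed in the count files, so genes with close copies may be undercounted. Whether molecular identifiers were counted is not stated, so intervals and floors cover counting error only.

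Genes were filtered with edgeR's filterByExpr, leaving 11080. It kept genes at the CPM of 10 counts in a median library, in at least as many libraries as 1 group holds. At least 15 counts in total were also required. After TMM scaling, edgeR 4.0.16 in R 4.3.3 fitted a quasi-likelihood model over the 28 libraries, with 7 group means. It gave 9 contrasts of 2 groups and 1 difference of responses, each two-sided with Benjamini-Hochberg adjustment over all genes. The standard error is the absolute log2 fold change divided by the square root of F, and is approximate. A group at 0 counts was set to 3 counts over the group. The replicate number is the experiment number in the sample titles, which pairs libraries across groups, and a fit with it as a block is given where it changes a call. Correlations of deviations from the group means between libraries of the same experiment were -0.04 to 0.42, 22 of 84 over 0.1, and 20 of 28 libraries correlated best with their own number.

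Values per library are given for Grin1, Ryr3 and, in each comparison, the 4 called genes with the largest change that reach 10 CPM in the higher group. The genes, the companion and marker lists and the rules were chosen with earlier results of these data known. Alternatives were library totals, relative log expression size factors, DESeq2 1.42.0, no filter, a replicate block, only the groups compared, each library left out, and replicate 3 of every group left out. Coordinates come from GENCODE M21 (GRCm38, the assembly that mm10 names). The fit was tested on simulated data. Some genes are counted but not reported here by name.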

Additional observations from a re-analysis of the deposited data

Results flagged for a closer look

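In 12 of 226 groups of 4 libraries at a mean of at least 3 CPM, a library lay so far from the other 3 that its gap exceeded Dixon's 95% critical value, and chance flags about 1 in 20 groups. Of the 12, 11 are given here. At 96 h, replicate 3 was high for Cacng4, a TARP subunit (27.9 CPM against 3.23 to 5.05 CPM), and for Kcng1, a Kv2 modifier (17 CPM against 2.75 to 4.85 CPM), and low for Cacng6 (0.872 CPM against 4.45 to 5.05 CPM). In the same group, replicate 1 was high for the kainate receptor gene Grik3 (30.7 CPM against 6.10 to 8.11 CPM). At 48 h, replicate 1 was low for the potassium channel gene Kcnh8 (7.26 CPM against 12.8 to 13.8 CPM) and high for the inward rectifier Kcnj12 (7.26 CPM against 1.84 to 2.44 CPM). Replicate 3 at 48 h was high for Scn8a (8.55 CPM against 3.95 to 4.67 CPM). At 24 h, replicate 1 was high for Kcnh3 (9.72 CPM against 0.471 to 1.38 CPM) and replicate 4 for Kcnh8 (14.5 CPM against 5.66 to 6.08 CPM). In 2iL, replicate 4 was high for Scn2b (19.3 CPM against 10.5 to 11.6 CPM) and Kcns3 (9.09 CPM against 4.72 to 5.31 CPM).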

How the results depend on the processing

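No call of a channel or receptor gene reversed under any alternative run. Of 141 calls of a gene in a comparison, 101 were kept under every alternative that gave a value, and 40 were lost under at least 1. Fitting only the groups compared tested 19 to 38 of the 44 genes, since fewer libraries entered the filter, and gave 12 risen at 96 h, 13 at 120 h, 1 risen on the return after 96 h, 0 above 2iL in 48 h + 2iL, 9 above and 6 below 2iL in 96 h + 2iL and 0 lower in 96 h + 2iL than at 120 h. Without the filter, which tests all 56 genes, 7 rose at 24 h, 5 rose on the return after 48 h, 2 were lower in 96 h + 2iL than at 120 h, and the responses differed upwards for 2 and downwards for 4. Without replicate 3 of every group 0 genes were above 2iL in 48 h + 2iL and 3 were lower in 96 h + 2iL than at 120 h. DESeq2 gave a difference of responses upwards for 1 gene. Leaving out 1 library at a time gave 1 to 4 risen on the return after 48 h, 1 to 2 risen and 2 to 8 fallen on the return after 96 h, 0 to 3 above 2iL in 48 h + 2iL, 0 to 2 lower in 96 h + 2iL than at 120 h, and 0 to 1 with a difference of responses upwards. Library totals moved the median of all genes by 0.12 on the log2 scale at 120 h, and the share of calls upwards in the difference of responses from 49.02% to 38.64%. Beyond what is said here of fewer genes or samples, the cause was not tested.

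With the experiment number as a replicate block, 8 calls were gained and 2 lost. The block moved the genes lower in 96 h + 2iL than at 120 h from 1 to 2 and the difference of responses upwards from 0 to 1. Gained calls included a rise of Scn8a at 48 h (adjusted p = 0.0249), of Cacna2d2 at 48 h (adjusted p = 0.0325) and of Kcna2 on the return after 48 h (adjusted p = 0.04), and Kcnq1ot1 below 2iL in 48 h + 2iL (adjusted p = 0.0415). The lost calls were Ryr1 below 2iL in 96 h + 2iL (adjusted p = 0.0559) and Kcnh8 above it at 96 h (adjusted p = 0.0518).

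At these depths a gene near 3 CPM rests on a few counts per library, so 12 of the 56 genes were not tested, and folds from groups with 1 to 3 counts have wide intervals.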

Other observations

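Of 26 tested genes that anchor, traffic or partner channels and receptors, 6 rose and 3 fell at 48 h, 17 rose and 1 fell at 96 h, and 18 rose and 1 fell at 120 h, with median log2 fold changes of 0.14, 1.73 and 1.44. Of all genes, 14.6%, 21.9% and 24.6% rose and 13.2%, 19.2% and 22.6% fell at these times. Dlg4, which encodes the postsynaptic scaffold PSD-95, rose from 2.73 ± 1.15 CPM in 2iL to 23 ± 7.19 CPM at 48 h (2.99 ± 0.45, adjusted p = 4.07e-06 by edgeR) and 39.7 ± 16.8 CPM at 120 h (3.79 ± 0.43, adjusted p = 1.06e-08 by edgeR). Nrxn2, a presynaptic adhesion molecule, rose from 2.92 ± 1.66 to 47.2 ± 8.88 CPM (4.01 ± 0.37, adjusted p = 1.37e-10 by edgeR). Cnih2, an AMPA receptor partner, was 0.416 ± 0.608 CPM in 2iL and 14.1 ± 2.85 CPM at 96 h, and fell to 3.27 ± 2.49 CPM when 2iL returned (-2.08 ± 0.48, adjusted p = 0.0041 by edgeR). Grip1, an AMPA receptor scaffold, was 22.3 ± 8.13 CPM at 96 h and 30.2 ± 6.09 CPM in 96 h + 2iL. Among intracellular calcium handling genes, 15 of 35 tested rose and 9 fell at 120 h. The junctophilin gene Jph4, which ties the endoplasmic reticulum to the plasma membrane, was 0.606 ± 0.356 CPM in 2iL, 36.7 ± 8.06 CPM at 96 h (5.87 ± 0.56, adjusted p = 4.2e-10 by edgeR) and 5.99 ± 3.84 CPM in 96 h + 2iL, a fall against 96 h (-2.66 ± 0.41, adjusted p = 3.61e-05 by edgeR).

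Gad1 and Trpm1 fell on withdrawal and rose when 2iL returned after 48 h. Gad1, which makes GABA, was 7.68 ± 5.03 CPM in 2iL, had 0 counts in the 4 libraries at 48 h, and was 16.7 ± 7.76 CPM in 48 h + 2iL (adjusted p = 9.61e-06 against 48 h by edgeR) and 6.09 ± 5.19 CPM in 96 h + 2iL. Trpm1, a cation channel gene of retina and melanocytes, was 49.8 ± 27.3 CPM in 2iL, 0.782 ± 0.631 CPM at 48 h and 9.86 ± 2.38 CPM in 48 h + 2iL, above 48 h (3.49 ± 0.67, adjusted p = 0.000355 by edgeR) and still below 2iL (-2.32 ± 0.43, adjusted p = 0.000412 by edgeR). Of 15 tested genes of transmitter synthesis and transport, 6 rose and 4 fell at 120 h. Of 27 tested other ion channel genes, 8 rose and 7 fell, and Lrrc8c, a subunit of volume-regulated anion channels, went from 1 count in 2iL to 385. Of 4 tested other receptor genes, 2 rose and 1 fell. Of 18 genes of the REST repressor and its cofactors, 5 rose and 5 fell at 120 h. Rest itself was 803 ± 104 CPM in 2iL, 325 ± 36.3 CPM at 96 h, 270 ± 31.4 CPM at 120 h and 318 ± 84.3 CPM in 96 h + 2iL (-1.57 ± 0.16 at 120 h, adjusted p = 6.37e-10 by edgeR). The shares of all genes that rose and fell at 120 h were 24.6% and 22.6%.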
